A study of Mus musculus with 8 samples.

Results

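Transcripts of 9 hematopoietic cytokine receptor genes were described in cultured mouse hematopoietic stem and progenitor cells (HSPCs) kept with or without malonyl-CoA, a coenzyme A ester used in fatty acid synthesis. The genes were Kit, Flt3, Csf1r, Csf2ra, Csf2rb, Csf2rb2, Csf3r, Il3ra and Il6ra, taken by name from the 48709 gene identifiers of the count files. All 9 were found, and all 9 passed the filter on low counts that left 12696 genes for testing. Lineage-negative, Sca1-positive, cKit-positive cells of C57Bl/6J mice were seeded at 10000 per well and grown for 7 days in serum-free Stemline II medium. The medium held 100 ng/ml of stem cell factor and 2 ng/ml of Flt3 ligand. Both groups received these 2 cytokines, and 1 of them also received malonyl-CoA at 100 µM. Each group held 4 libraries of stranded total RNA, numbered 1, 3, 4 and 5 in both, and the design text calls them biological replicates without saying whether a number stands for an animal, a pool or a culture. P-values here reflect only the spread among these samples, which may be technical. The libraries hold RNA of the progeny at day 7 rather than of the sorted cells. In RNA from a mixed culture a change in the number of cells that carry a receptor and a change in transcript per cell cannot be told apart.

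The receptors belong to a pair of families. Kit, Flt3 and Csf1r encode receptor tyrosine kinases, which dimerise when their ligand binds and phosphorylate each other: Kit binds stem cell factor, Flt3 binds Flt3 ligand, and Csf1r binds macrophage colony-stimulating factor (M-CSF) and interleukin-34. Csf2ra, Csf2rb, Csf2rb2, Csf3r, Il3ra and Il6ra encode type I cytokine receptor chains, which have no kinase of their own and act through Janus kinases and STAT factors. Csf2ra and Il3ra are the ligand-specific alpha chains for granulocyte-macrophage colony-stimulating factor (GM-CSF) and interleukin-3, Csf2rb is the beta chain that both share with the interleukin-5 receptor, and Csf2rb2 is a beta chain found in mice that serves interleukin-3. Csf3r is the receptor for granulocyte colony-stimulating factor (G-CSF), and Il6ra is the ligand-binding chain for interleukin-6. Kit and Flt3 mark stem and progenitor cells, mast cells keep Kit, and the other receptors are carried mainly by myeloid progenitors and their monocyte, macrophage and granulocyte progeny.

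Counts assigned to genes ranged from 17492085 to 22079844 per library, and a member's count in a library ranged from 356 (Il3ra, control 5) to 7234 (Csf1r, malonyl-CoA 4). No pair of the 8 libraries agreed within sampling noise. Malonyl-CoA 4 stood apart on the first principal component (63.3, with control 4 next at 25.3), and control 5 stood apart in base composition: Spearman's rho across genes between its log2 deviations and transcript GC content was -0.74, against -0.11 to 0.24 in the other controls and 0.20 to 0.52 with malonyl-CoA. Each member's log2 fold change is also given with control 5, malonyl-CoA 4 or both left out. The cells still showed progenitor RNA: Cd34, a surface marker of progenitors, averaged 598 CPM (counts scaled to library size with TMM factors) in control, and Ly6a, which encodes Sca1, 42.2 CPM. Markers of myeloid lineages were present beside it, and their sums do not separate precursors from mature cells. Mpo (means of 9386 CPM in control and 9165 with malonyl-CoA) and Elane (3200 and 2488 CPM) made the largest part of the neutrophil sum. The 19 neutrophil markers summed to 13840 to 21740 CPM in control and 13960 to 17850 CPM with malonyl-CoA, with Retnlg, Ly6g and Mmp9 under a mean of 1 CPM in both groups, and the 18 monocyte and macrophage markers to 5048 to 6984 and 5538 to 6591 CPM, with C1qa and C1qb under a mean of 1 CPM. The 14 mast cell and basophil markers summed to 990.5 to 1203 CPM in control and 829 to 935 CPM with malonyl-CoA, with Mcpt4, Cma1, Tpsb2 and Tpsab1 under a mean of 1 CPM. Single libraries exceeded that level for C1qb, Cma1 and Tpsb2.

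The receptors for M-CSF and GM-CSF stood higher with malonyl-CoA, while those for the 2 cytokines in the medium overlapped between the groups. Csf1r was at 1.44 times, Csf2ra at 1.67 times, Csf2rb at 1.48 times and Csf2rb2 at 1.45 times the control level, and for each of them all 4 treated libraries exceeded all 4 controls. No member passed edgeR's quasi-likelihood test with Benjamini-Hochberg adjustment over all 12696 genes, and neither did any other gene (0% called). At an unadjusted p under 0.05, 4 of the 9 members were higher and 0 lower, where 5.43% of all genes were higher and 4.1% lower (9.53% in either direction). The groups did not overlap in 5 of the 9 members, all with malonyl-CoA above, where 3.21% of all genes had malonyl-CoA above and 2.93% below (6.14% in either direction). The median log2 fold change (malonyl-CoA minus control) was 0.51 over the members and 0.023 over all genes, and 7 of 9 members against 53.4% of all genes were above 0. DESeq2, which called 0.597% of the genes it tested, called Csf1r (adjusted p = 0.013) and Csf2ra (adjusted p = 0.0439). edgeR with the replicate number as a block, although the numbers were not shown to pair the libraries, called 1.35% of genes and among them Csf1r (adjusted p = 0.0473), Csf2ra (0.0464) and Csf2rb (0.048).

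**Figure D1:**
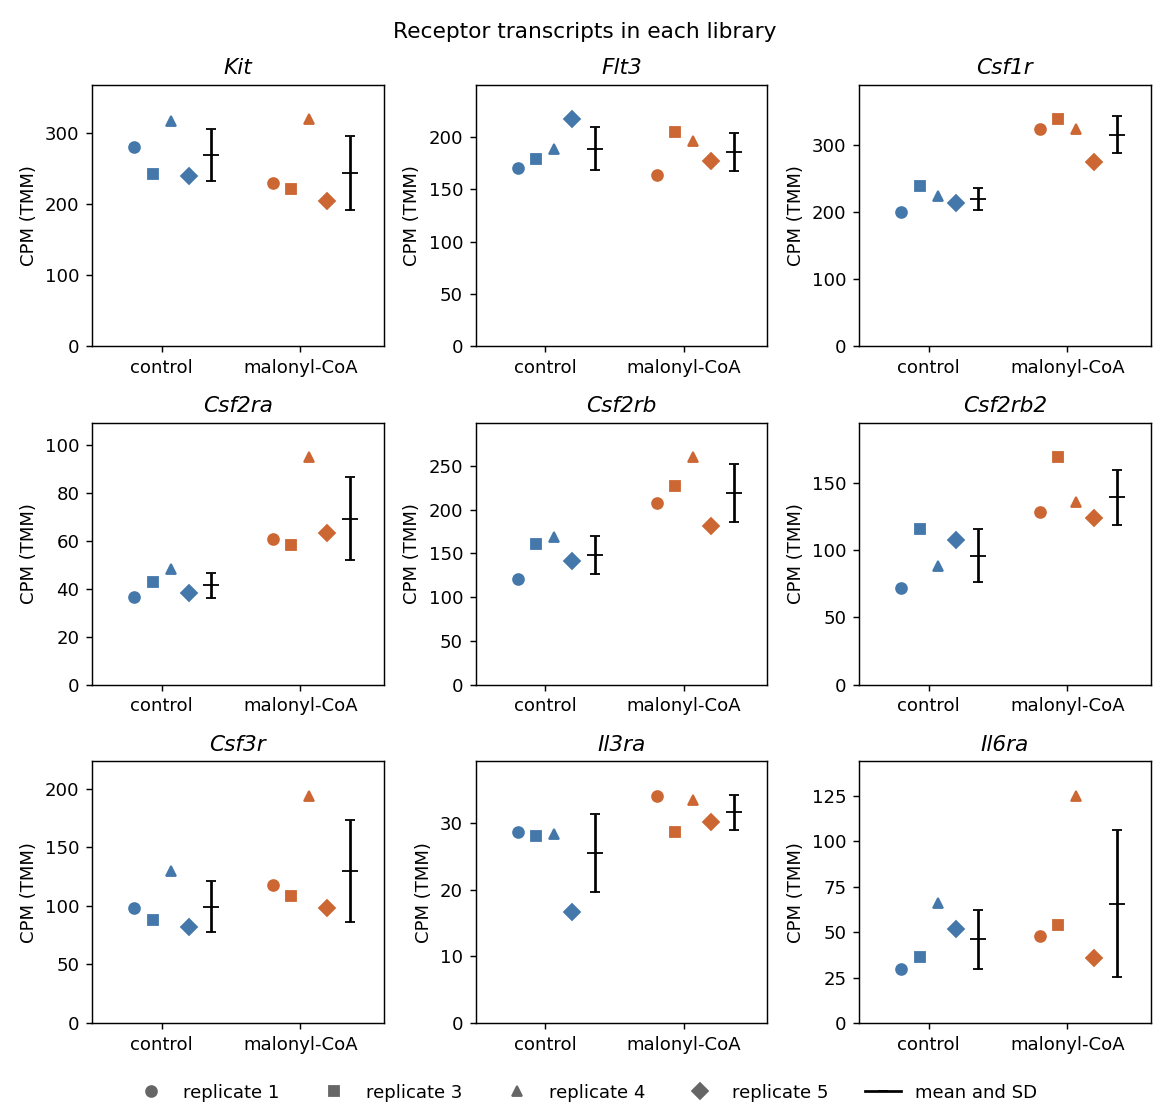
Level of each receptor transcript in CPM with TMM scaling (y axes from 0) in the control (blue) and malonyl-CoA (orange) libraries, with the marker shape giving the replicate number and the black bars the mean and SD of 4 libraries. Csf1r, Csf2ra, Csf2rb and Csf2rb2 have all orange points above all blue points, and in Il3ra the gap is 28.69 against 28.73 CPM, while Kit, Flt3, Csf3r and Il6ra overlap.

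Kit (ENSMUSG00000005672, GRCm38 chromosome 5, 75574916 to 75656722) stood at 281, 242.5, 317 and 239.6 CPM in controls 1, 3, 4 and 5 and at 230.5, 222, 320.1 and 204 CPM in malonyl-CoA 1, 3, 4 and 5. Both libraries numbered 4 were the highest of their group, and malonyl-CoA 4 was the only treated library above the lowest control. The means of 270.1 ± 36.7 and 244 ± 51.9 CPM (SD, n = 4 each) gave a log2 fold change of -0.15 (SE 0.16, 95% interval -0.51 to 0.22, edgeR adjusted p = 0.693). Without malonyl-CoA 4 the other 3 treated libraries lay below all controls and the log2 fold change was -0.31 (95% interval -0.61 to -0.019, unadjusted p = 0.0389, edgeR adjusted p = 0.554), and without control 5 and malonyl-CoA 4 it was -0.36 (unadjusted p = 0.0165, edgeR adjusted p = 0.452). Without both libraries numbered 4 it was -0.22, and without control 4 it was -0.058. The markers of mast cells and basophils, of which mast cells keep Kit, had 10 of 12 tested members with a log2 fold change below 0, against 46.6% of all genes. Their median was -0.30, and their summed level in the 4 treated libraries lay below that of every control. The 2 above 0 were Cma1 (1.26, SE 0.81) and Tpsb2 (0.34, SE 0.76), both under a mean of 1 CPM. The list does not separate mast cells from basophils, and the part of these cells in the Kit values was not tested.

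Flt3 (ENSMUSG00000042817, chromosome 5, 147330741 to 147400489) varied less. It stood at 169.9, 179, 188.5 and 217 CPM in controls 1, 3, 4 and 5 and at 164, 205, 196 and 177 CPM in malonyl-CoA 1, 3, 4 and 5. The treated libraries lay within the range of the controls except malonyl-CoA 1, which was the lowest of all 8. The log2 fold change was -0.023 (SE 0.12, 95% interval -0.29 to 0.24, edgeR adjusted p = 0.944), an interval that leaves room for a change of either sign. That value turned positive with library size only (0.021), without control 5 (0.051) and without malonyl-CoA 1 (0.032), and was -0.057 without malonyl-CoA 4.

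Csf1r (ENSMUSG00000024621) had the smallest unadjusted p of the 9 members, 0.00075. It stood at 200.4, 239, 224 and 213 CPM in controls 1, 3, 4 and 5 and at 324, 338, 323 and 275 CPM in malonyl-CoA 1, 3, 4 and 5. The lowest treated library, malonyl-CoA 5, was above the highest control by more than the SD of either group. The means of 219 and 315 CPM gave a log2 fold change of 0.52 (SE 0.11, 95% interval 0.28 to 0.77, edgeR adjusted p = 0.352). It was 0.48 to 0.58 when any 1 library was left out and 0.50 without control 5 and malonyl-CoA 4. Exons of Hmgxb3 on the opposite strand overlap 873 bases of Csf1r exons, and the strand setting of the counter is not given in the sources used here, so the count of Csf1r is uncertain to that extent.

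The GM-CSF receptor genes stood higher alongside Csf1r. Csf2ra (ENSMUSG00000059326, chromosome 19, 61223957 to 61228429), the alpha chain, stood at 36.6, 42.8, 48.3 and 38.4 CPM in controls 1, 3, 4 and 5 and at 60.6, 58.3, 94.7 and 63.1 CPM in malonyl-CoA 1, 3, 4 and 5. Malonyl-CoA 4 lay far above the other treated libraries, and these in turn lay above every control. The means were 41.5 ± 5.22 and 69.2 ± 17.1 CPM (SD, n = 4 each), a log2 fold change of 0.74 (SE 0.18, 95% interval 0.34 to 1.13, edgeR adjusted p = 0.352), the largest of the 9. It was 0.54 without malonyl-CoA 4 and 0.51 without control 5 and malonyl-CoA 4.

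Csf2rb (ENSMUSG00000071713, chromosome 15, 78325752 to 78353847), the shared beta chain, stood at 121, 161, 169 and 141 CPM in controls 1, 3, 4 and 5 and at 207, 227, 259.8 and 181 CPM in malonyl-CoA 1, 3, 4 and 5. Control 4 and malonyl-CoA 4 were the highest of their groups, as in Csf2ra, and the groups did not overlap. The log2 fold change was 0.57 (SE 0.15, 95% interval 0.23 to 0.90, edgeR adjusted p = 0.352). It was 0.46 without malonyl-CoA 4 and 0.45 without control 5 and malonyl-CoA 4. Csf2rb2 (ENSMUSG00000071714, chromosome 15, 78282507 to 78305721), the interleukin-3 beta chain, stood at 71.9, 116, 88.3 and 108 CPM in controls 1, 3, 4 and 5 and at 129, 169, 136 and 124 CPM in malonyl-CoA 1, 3, 4 and 5. Here the libraries numbered 3 were the highest of their groups. The log2 fold change was 0.54 (SE 0.17, 95% interval 0.17 to 0.92, edgeR adjusted p = 0.419). It was 0.60 without control 5, 0.55 without malonyl-CoA 4 and 0.61 without both. The beta chain genes lie side by side on chromosome 15 and are near copies: 19.0% of the 50-base words of the longest Csf2rb2 transcript also occur in Csf2rb transcripts, and 18.4% of those of Csf2rb occur in Csf2rb2. Reads from these stretches have several positions and may be lost or split between the genes, so the split between them is uncertain.

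Across the 8 libraries the log2 CPM of Csf1r followed that of Csf2rb (Pearson's r = 0.94), Csf2rb2 (0.89) and Csf2ra (0.84). Against Kit the r of Csf1r was -0.26 and against Flt3 0.0058. These values are a description over 8 points that share library, depth and base composition and include the difference between the groups. The 3 genes most like Csf1r among 10651 candidates were Ralgds (r = 0.99), Irf1 (0.97) and Plxna1 (0.96). Irf1, an interferon-induced transcription factor, stood at 37.8, 47.4, 39.8 and 37.2 CPM in controls 1, 3, 4 and 5 and at 63.4, 65.6, 59.9 and 58.9 CPM in malonyl-CoA 1, 3, 4 and 5, without overlap of the groups. Kit was followed most closely by Susd1 (r = 0.99), Trub1 (0.98) and Cdk5r1 (0.97), and Flt3 by Gramd3 (0.97), Mtss1 (0.95) and Rnf150 (0.94). Of these 9 genes, the 3 most like Csf1r had log2 fold changes of 0.61 to 1.21 and the other 6 of -0.27 to -0.026. They were picked by likeness over all 8 libraries, group difference included. Their fold changes, and the gap between the groups in Irf1, therefore follow from the choice and are no separate result.

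The promoters of 4 members are shown because Csf2ra and Csf2rb2 stood higher in all malonyl-CoA libraries while Kit and Flt3 did not. They are RefSeq sequences of build GRCm38.p6, 5′ to 3′ on the strand of the gene, running from 250 bases before the RefSeq start up to that start, with that of Kit ending where its first GENCODE transcript begins. The last bases of the Csf2ra stretch lie inside its GENCODE gene, as does the second of its matches. Capitals mark GAGGAA or its complement TTCCTC, the core bound by the ETS factor PU.1. The stretches are chr19:61228419-61228668 (minus strand) for Csf2ra, chr15:78305722-78305971 (minus strand) for Csf2rb2, chr5:75574737-75574915 (plus strand) for Kit and chr5:147400490-147400739 (minus strand) for Flt3.
Csf2ra: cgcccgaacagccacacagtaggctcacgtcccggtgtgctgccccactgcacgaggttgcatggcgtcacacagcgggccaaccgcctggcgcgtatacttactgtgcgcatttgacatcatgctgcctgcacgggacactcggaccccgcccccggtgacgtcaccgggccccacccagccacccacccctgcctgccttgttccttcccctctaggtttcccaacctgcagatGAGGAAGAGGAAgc
Csf2rb2: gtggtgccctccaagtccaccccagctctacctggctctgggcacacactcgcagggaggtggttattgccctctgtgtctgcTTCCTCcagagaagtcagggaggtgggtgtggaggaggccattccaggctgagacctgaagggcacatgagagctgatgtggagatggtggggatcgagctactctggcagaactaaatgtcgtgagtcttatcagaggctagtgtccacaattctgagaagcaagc
Kit: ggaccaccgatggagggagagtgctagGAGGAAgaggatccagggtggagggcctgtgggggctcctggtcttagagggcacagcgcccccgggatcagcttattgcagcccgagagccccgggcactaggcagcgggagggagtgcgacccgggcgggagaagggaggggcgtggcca
Flt3: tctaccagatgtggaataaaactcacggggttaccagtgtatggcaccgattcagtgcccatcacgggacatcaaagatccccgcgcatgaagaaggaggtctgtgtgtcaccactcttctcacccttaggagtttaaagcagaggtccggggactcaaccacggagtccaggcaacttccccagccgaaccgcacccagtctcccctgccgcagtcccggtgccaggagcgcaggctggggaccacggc
The printed stretch of Csf2ra holds 2 matches side by side, just before the start, that of Csf2rb2 holds 1 and that of Kit holds 1. In that of Flt3 these letters do not occur. Windows of 300 bases, from 250 before to 50 after the RefSeq start, were held for 7 of the 9 members, without Csf1r and Csf2rb, which are among the 4 that stood higher, and GAGGAA on either strand was in 5 of them (Kit, Csf2ra, Csf2rb2, Csf3r and Il6ra) and in 28.3% of all 27025 such windows. The RUNX motif TGTGGT was in 0 of the 7 and in 16.9% of all windows, the GATA motif AGATAA in 1 (Il6ra) and 11.4%, and the C/EBP motif TTGCNNAA in 1 (Il3ra) and 10.7%, each searched on both strands. A match is a run of letters and not a measured binding site, and Kit, which was not higher, holds the PU.1 core too. Spi1, the gene of PU.1, stood at 155, 163, 149.9 and 135 CPM in controls 1, 3, 4 and 5 and at 208, 198, 207 and 202 CPM in malonyl-CoA 1, 3, 4 and 5. The groups did not overlap, and the difference was 0.43 on the log2 scale (SE 0.098, edgeR adjusted p = 0.352, DESeq2 adjusted p = 0.0229) and 0.13 after the GC correction described next.

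**Figure D2:**
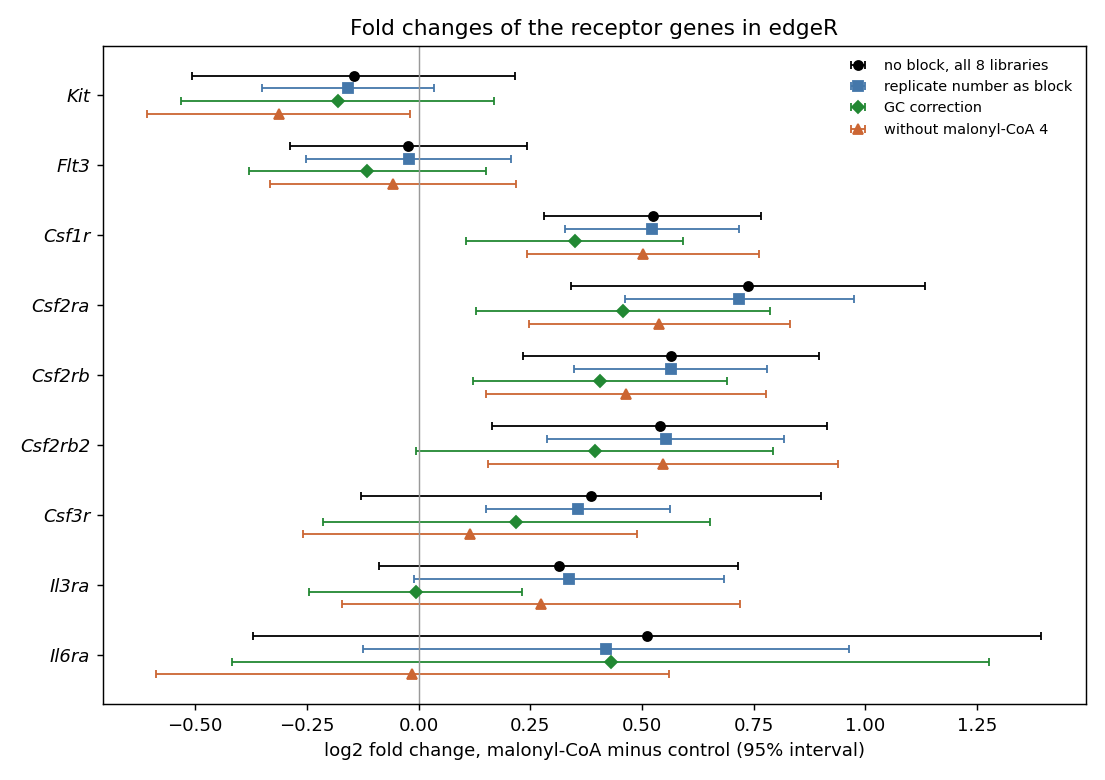
Log2 fold change (malonyl-CoA minus control, x axis) of each receptor gene in edgeR with its 95% interval, for all 8 libraries without a block (black), with the replicate number as a block (blue), after a GC correction per library (green) and without malonyl-CoA 4 (orange). The values of Csf1r, Csf2ra, Csf2rb and Csf2rb2 stay above 0 in all 4 fits, Il3ra falls to -0.0066 after the GC correction and Il6ra to -0.014 without malonyl-CoA 4.

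Base composition moved with part of these differences. Transcripts of the members ranged from 48.5% GC (Kit) to 60.7% (Il3ra), with Csf2ra at 57.8%, Csf1r at 54.5%, Csf2rb at 53.9% and Csf2rb2 at 53.3%. When each library's dependence on GC content was removed, the log2 fold change was 0.35 for Csf1r (edgeR adjusted p = 0.533), 0.46 for Csf2ra (0.551), 0.41 for Csf2rb (0.533) and 0.39 for Csf2rb2 (0.608). At an unadjusted p under 0.05 this correction left 3 members, since Csf2rb2 was at 0.0524, and turned the balance over all genes from 690 higher and 520 lower to 389 higher and 655 lower.

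The differences of the remaining receptors varied with the library left out. With 1 library left out, log2 fold changes ranged from 0.11 to 0.54 for Csf3r and from 0.16 to 0.38 for Il3ra. For Il6ra the range was -0.014 to 0.74. Csf3r (ENSMUSG00000028859, chromosome 4, 126024550 to 126044440), the G-CSF receptor of the neutrophil lineage, stood at 97.8, 87.6, 130.1 and 81.8 CPM in controls 1, 3, 4 and 5 and at 118, 109, 194 and 98.3 CPM in malonyl-CoA 1, 3, 4 and 5. Control 4 was above 3 of the treated libraries, and malonyl-CoA 4 above all others. The log2 fold change of 0.39 (SE 0.23, 95% interval -0.13 to 0.90, edgeR adjusted p = 0.532) was 0.11 without malonyl-CoA 4, 0.041 without control 5 and malonyl-CoA 4, and 0.27 without both libraries numbered 4. With the replicate number as a block it was 0.36 (SE 0.088, 95% interval 0.15 to 0.56, edgeR adjusted p = 0.0729). Of the 16 neutrophil markers tested, 15 had a log2 fold change below 0, against 46.6% of all genes. Their median was -0.34, while Csf3r stood above 0. Whether these differ was not tested.

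Il3ra (ENSMUSG00000068758, chromosome 14, 14346275 to 14356011), the interleukin-3 alpha chain, stood at 28.7, 28.1, 28.3 and 16.7 CPM in controls 1, 3, 4 and 5 and at 34.1, 28.7, 33.4 and 30.2 CPM in malonyl-CoA 1, 3, 4 and 5. Controls 1, 3 and 4 lay close together and control 5 far below them, and the lowest treated library (28.73 CPM) barely exceeded the highest control (28.69 CPM). The log2 fold change of 0.31 (SE 0.18, 95% interval -0.089 to 0.72, edgeR adjusted p = 0.524) was 0.16 without control 5. Il3ra has the highest GC share of the members, and after the GC correction its log2 fold change was -0.0066 (95% interval -0.24 to 0.23). The correction also takes out GC dependence that goes with the groups, whose rho was -0.74 to 0.24 in control and 0.20 to 0.52 with malonyl-CoA. The part of base composition in the Il3ra values was not tested.

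Il6ra (ENSMUSG00000027947, chromosome 3, 89864059 to 89913196) stood at 29.7, 36.6, 66.2 and 51.9 CPM in controls 1, 3, 4 and 5 and at 48.1, 53.9, 125 and 35.7 CPM in malonyl-CoA 1, 3, 4 and 5. The libraries numbered 4 were again the highest of their groups. The log2 fold change of 0.51 had the widest error of the 9 (SE 0.39, 95% interval -0.37 to 1.39, edgeR adjusted p = 0.585) and was -0.014 without malonyl-CoA 4. Il6st, which encodes gp130, the signalling partner of this chain, had a log2 fold change of 0.23 (SE 0.17, edgeR adjusted p = 0.582), which was 0.021 without malonyl-CoA 4.

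Levels were compared between genes only per length, as RPKM (CPM per kilobase of the union of annotated exons). In control the order was Csf1r (38.0 ± 2.85), Flt3 (30.5 ± 3.31), Kit (30.3 ± 4.12), Csf3r (27.5 ± 5.97), Csf2rb (20.3 ± 2.96), Csf2rb2 (20.2 ± 4.17), Csf2ra (14.5 ± 1.82), Il3ra (8.58 ± 1.97) and Il6ra (5.34 ± 1.89; all SD, n = 4). Neighbours in this order overlapped in their library ranges, except Csf2ra and Il3ra. With malonyl-CoA Csf1r was again first (54.6 ± 4.81 RPKM), Csf3r second (35.96 ± 12.1), and Csf2rb (30.1 ± 4.56) stood level with Flt3 (30.1 ± 2.99), with Kit at 27.4 ± 5.82 in sixth place. The order of the leading genes depends on the length used, since the annotated exons of Kit sum to 8911 bases and its longest transcript to 5241: per longest transcript Kit led in control at 51.5 ± 7.00 RPKM, with Flt3 at 47.7 ± 5.17 and Csf1r at 46.6 ± 3.50, and these 3 overlapped. With malonyl-CoA Csf1r led on either length.

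**Figure D3:**
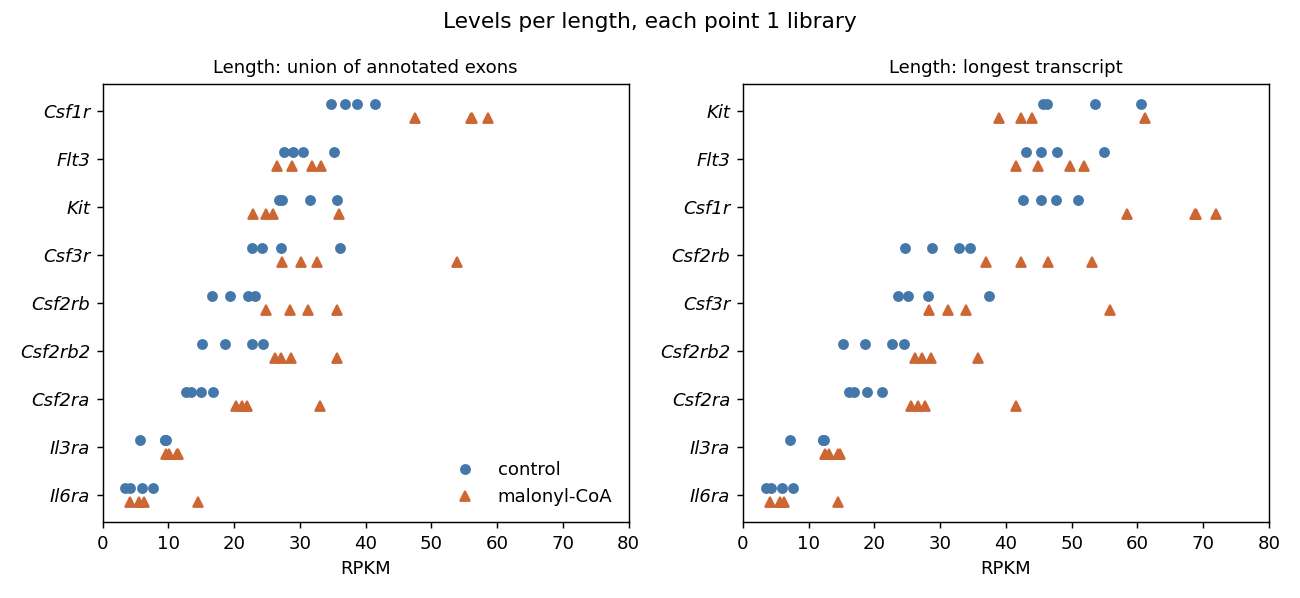
Level per length in RPKM (x axes) of the 9 receptor transcripts in each library, control as blue circles and malonyl-CoA as orange triangles, with genes ordered by their control mean. Per union of exons (left) Csf1r leads with a control mean of 38.0, and per longest transcript (right) Kit leads with 51.5 and the first 3 genes overlap.

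A ratio of transcripts within a library removes what a pair of receptors share. The ratio of Csf1r to Csf3r, the macrophage against the granulocyte receptor, stood at 2.05, 2.73, 1.72 and 2.605 for controls 1, 3, 4 and 5 and at 2.75, 3.11, 1.66 and 2.795 for malonyl-CoA 1, 3, 4 and 5. The libraries numbered 4 had the lowest ratio of their groups, and the groups overlapped (log2 difference 0.17, two-sided exact permutation p = 0.543, adjusted p = 0.857 over 3 ratios, n = 4 each). Without malonyl-CoA 4 the log2 difference was 0.36. The ratio of Flt3 to Kit was 0.594 to 0.906 in control and 0.613 to 0.924 with malonyl-CoA (log2 difference 0.14, exact permutation p = 0.571, adjusted p = 0.857, n = 4 each). It was 0.25 without malonyl-CoA 4 and 0.26 without control 5. The ratio of Csf2rb2 to Csf2rb was 0.523 to 0.763 in control and 0.522 to 0.745 with malonyl-CoA (log2 difference -0.011, exact permutation p = 0.914, adjusted p = 0.914, n = 4 each). The smallest p this test can give is 0.0286.

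**Figure D4:**
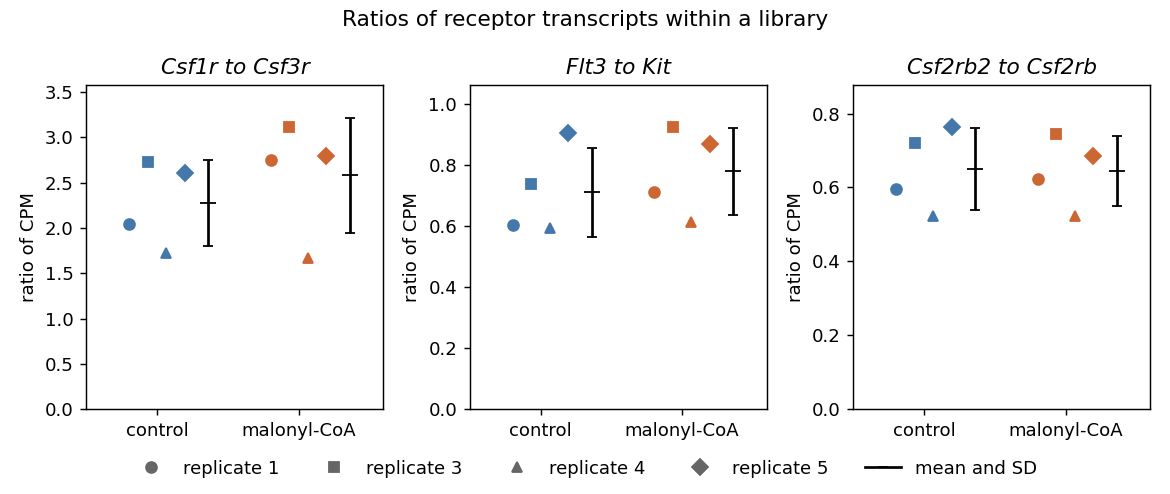
Ratio of CPM between pairs of receptor transcripts in each library (y axes from 0), control in blue and malonyl-CoA in orange, with the marker shape giving the replicate number and black bars the mean and SD of 4 libraries. In each panel the groups overlap, and the libraries numbered 4 (triangles) are the lowest of their group.

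The cultures carried little RNA for most of the ligands. Il3 had 0 counts in all 8 libraries, which allows at most 0.134 to 0.177 CPM (3 counts of a library, counting error only). Csf2, the GM-CSF gene, had 0 to 2 counts in control and 0 to 4 with malonyl-CoA, Csf3, the G-CSF gene, 0 to 1 and 1 to 4, and Il34, which encodes the other ligand of the M-CSF receptor, 0 to 5 and 1 to 6. These 4 genes were under the filter and were not tested. Csf1, the M-CSF gene, stood at 4.96, 9.9, 8.29 and 9.91 CPM in controls 1, 3, 4 and 5 and at 11.7, 14.3, 12.5 and 8.46 CPM in malonyl-CoA 1, 3, 4 and 5. All but malonyl-CoA 5 lay above every control, and the log2 difference was 0.50 (SE 0.24, edgeR adjusted p = 0.515). Il6 averaged 4.52 ± 2.54 and 4.66 ± 1.08 CPM (SD, n = 4 each; log2 fold change 0.031, SE 0.36). Kitl and Flt3l, which encode the cytokines supplied in the medium, were at 0.89 and 0.95 CPM for Kitl and 2.44 and 2.89 CPM for Flt3l, with log2 fold changes of 0.093 (SE 0.39) and 0.23 (SE 0.32).

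Downstream of the receptors no gene passed the adjusted test either, and most fold changes were above 0. Of 20 signalling genes 17 were above 0 and 3 below, where 53.4% of all genes were above 0. At an unadjusted p under 0.05, 5 were higher, where 5.43% of all genes were higher. The median log2 fold change was 0.21, or 0.066 without malonyl-CoA 4. Jak2, the kinase bound to the beta chain, had a log2 fold change of 0.20 (SE 0.18), Stat3 of 0.32 (SE 0.12), Stat5a of 0.25 (SE 0.20), Stat5b of 0.12 (SE 0.12) and the Src-family kinase gene Lyn of 0.013 (SE 0.12). After the GC correction Stat5a was at -0.031 and Stat5b at -0.0032. Without malonyl-CoA 4 Jak2 was at 0.059, Stat5a at 0.051 and Stat5b at 0.039. The signalling genes below that unadjusted p included Stat3 and, named after their values were seen, the kinase gene Jak3 (0.58, SE 0.19), Pik3cd (0.57, SE 0.19), which encodes a catalytic subunit of phosphoinositide 3-kinase, and Plcg2 (0.47, SE 0.18), which encodes a phospholipase C. Of 10 genes known as STAT5 targets 9 were above 0, with a median of 0.32. Where 9.53% of all genes had an unadjusted p under 0.05 in either direction, 1 of these targets did. That was Pim1, a survival kinase, at 56, 91.9, 60.4 and 77.7 CPM in controls 1, 3, 4 and 5 and at 134, 154.5, 134 and 147 CPM in malonyl-CoA 1, 3, 4 and 5. Its groups did not overlap, and the log2 difference was 0.99 (SE 0.16, edgeR adjusted p = 0.217). Osm, which encodes oncostatin M, was at 0.65 (SE 0.32), Bcl2l1 at 0.18 (SE 0.15) and Ccnd2 at -0.098 (SE 0.11). DESeq2 called Pim1 (adjusted p = 0.00012), and edgeR with the replicate number as a block called Pim1 and Socs3 (adjusted p = 0.0464 each).

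Brakes on the receptors had 10 of 14 members above 0 (all genes 53.4%) and a median of 0.20. With an unadjusted p below 0.05, 3 stood higher and 0 lower, where the shares among all genes were 5.43% and 4.1%. Socs3, which blocks gp130 and G-CSF receptor signalling, stood at 3.71, 8.18, 2.1 and 4.51 CPM in controls 1, 3, 4 and 5 and at 11.5, 15.6, 6.57 and 12.4 CPM in malonyl-CoA 1, 3, 4 and 5. Control 3 exceeded malonyl-CoA 4, and the log2 difference was 1.32 (SE 0.39, edgeR adjusted p = 0.399). Cish and Socs2, which dampen STAT5, were low, with 1.58 and 0.54 CPM in control, with log2 fold changes of 0.59 (SE 0.62) and 0.99 (SE 0.54), and Socs2 is also on the list of STAT5 targets. Without malonyl-CoA 4 Cish was at 0.92. The other 2 brakes below an unadjusted p of 0.05, named after their values were seen, were Socs1 (0.90, SE 0.39) and the phosphatase gene Ptpn6 (0.58, SE 0.17). Sh2b3, which restrains Jak2 and Kit, was at 0.39 (SE 0.19), or 0.18 without malonyl-CoA 4, and Cbl, the ligase that sends activated receptors to degradation, at -0.094 (SE 0.12).

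**Figure D5:**
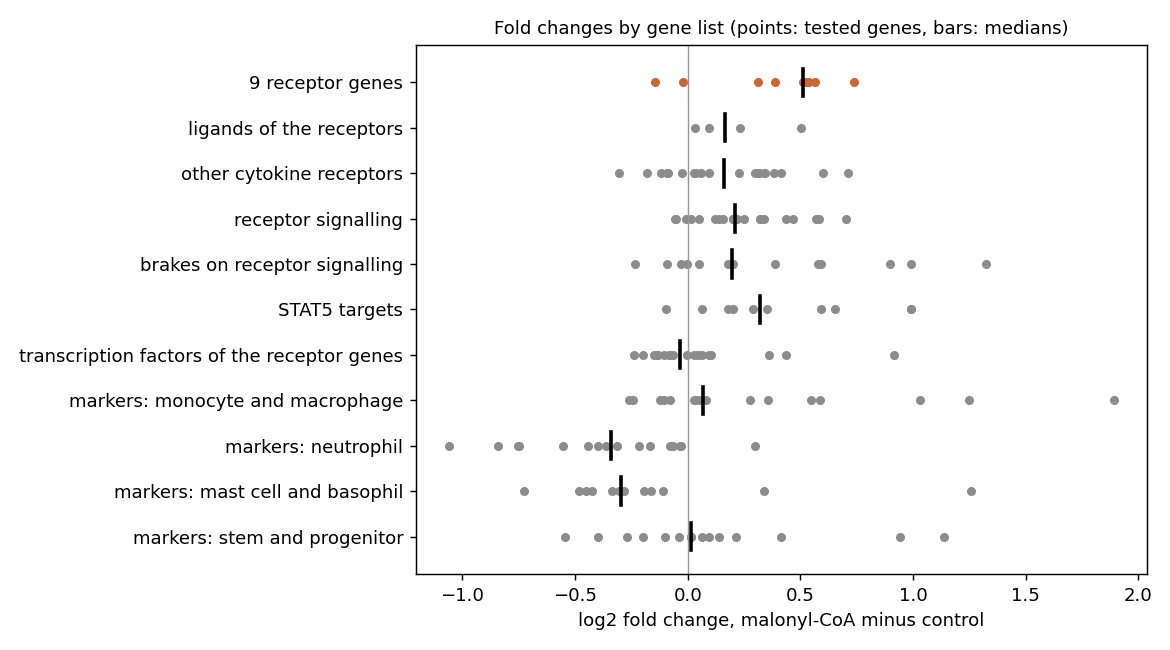
Log2 fold change (malonyl-CoA minus control, x axis) of each tested gene in the receptor set (orange) and in other gene lists (grey), with black bars for the list medians. The receptor median is 0.51, those of signalling, brakes and STAT5 targets lie between 0.20 and 0.32, and those of neutrophil and mast cell markers are -0.34 and -0.30.

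Among other cytokine receptors some stood as high above control as the members. Of 21 listed, 20 were tested and 14 were above 0 (all genes 53.4%), with a median of 0.16. The groups did not overlap in 2 of them, against 6.14% of all genes in either direction. With an unadjusted p below 0.05, 4 stood higher and 0 lower, where the shares among all genes were 5.43% and 4.1%. These 4, named after their values were seen, were Il2rg, the common gamma chain (log2 fold change 0.71, SE 0.20), Il4ra, the interleukin-4 receptor alpha chain (0.60, SE 0.17, no overlap), Ifngr2, a chain of the interferon gamma receptor (0.31, SE 0.11, no overlap), and Ifnar1, a chain of the type I interferon receptor (0.34, SE 0.14). Whether the list differs from the members was not tested. Epor, the erythropoietin receptor, had a log2 fold change of 0.31 (SE 0.20), Il5ra, which pairs with Csf2rb, of 0.035 (SE 0.32), and Il7r, the interleukin-7 receptor of lymphoid precursors, of -0.091 (SE 0.19). Among 18 transcription factors of the receptor genes 8 were above 0 and 10 below, with a median of -0.033 (-0.13 to 0.031 with 1 library left out). Where 5.43% of all genes were higher and 4.1% lower at an unadjusted p under 0.05, 2 of these factors were higher and 1 lower. Beside Spi1 these were, named after their values were seen, Cebpb, a factor of myeloid cells, which averaged 18.2 ± 6.83 and 34.3 ± 2.62 CPM (SD, n = 4 each) with a log2 difference of 0.92 (SE 0.23, edgeR adjusted p = 0.352), and Tal1, a factor of stem and erythroid cells, at -0.24 (SE 0.10, edgeR adjusted p = 0.515). Neither overlapped between the groups. Of the others, Runx1 was at -0.0025 (SE 0.15), Cebpa at -0.11 (SE 0.12), Gata2 at 0.094 (SE 0.15), Meis1 at -0.20 (SE 0.19) and Hoxa9 at 0.066 (SE 0.18).

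Cell type markers give the setting of these values, where 53.4% of all genes had a log2 fold change above 0. Monocyte and macrophage markers, whose cells carry Csf1r and the GM-CSF receptor, had 11 of 16 tested members above 0, a median of 0.069 and summed levels that overlapped between the groups. At an unadjusted p under 0.05, 3 of them were higher and 0 lower, against 5.43% and 4.1% of all genes. Dendritic cell markers had 7 of 12 above 0 with a median of 0.22, and summed to 742 to 1385 CPM in control and 859 to 1770 CPM with malonyl-CoA, with Xcr1 and Batf3 under 1 CPM. Stem and progenitor markers had 9 of 15 above 0 with a median of 0.014, and their summed level was 1013 to 1143 CPM in control and 847 to 993 CPM with malonyl-CoA. Cd34 made the largest part of that sum, which therefore follows mainly this gene and not the list as a whole. Cd34 averaged 598 ± 41.4 and 454 ± 20.1 CPM (SD, n = 4 each) without overlap of the groups, with a log2 difference of -0.40 (SE 0.10, edgeR adjusted p = 0.352), and DESeq2 called it lower (adjusted p = 0.0445). Ly6a averaged 42.2 ± 21.1 and 81.3 ± 37.2 CPM (log2 fold change 0.94, SE 0.44). Stromal RNA was near 0 (Col1a1 at 0.035 and 0.048 CPM), while the endothelial gene Cdh5, which progenitors also express, was at 5.23 and 7.49 CPM (log2 difference 0.52, SE 0.15, edgeR adjusted p = 0.399). The part of these cell types in the receptor values was not tested.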

How the data were processed

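RNA sequencing counts of 4 control and 4 malonyl-CoA libraries were analysed, grouped by the sample titles. The authors deposited raw counts per Ensembl gene. Per the submitters' processing notes, the tools were HTSeq 0.6.1, STAR 2.5.2b and cutadapt 1.8, with build GRCm38. Which annotation release and strand setting were used is not given in the sources used here. Reads in no gene (up to 2.94%), ambiguous reads (up to 0.891%) and reads with several positions (38.2% to 51.1% per library) were left out of library sizes. GENCODE M21 gave symbols for 48349 of 48709 identifiers. The depth of 17492085 to 22079844 counts makes counting error small for the members and larger for genes near 1 CPM.

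edgeR 4.0.16 in R 4.3.3 used filterByExpr (minimum count 10, total 15), TMM factors, a robust glmQLFit without covariates, the two-sided glmQLFTest and Benjamini-Hochberg adjustment at 0.05 over 12696 genes. The SE is the absolute log2 fold change over the root of F. Likeness used log2 CPM with a prior count of 2, among genes with a mean of at least 1. Ratios were compared by two-sided exact permutation over 70 splits. The members and lists were chosen with earlier results of these data known. The text names all members, preset genes of each list (some are not reported here) and the 3 genes most like Kit, Flt3 and Csf1r. Alternatives were other factors and filters, the replicate block, DESeq2 1.42.0 (no adjusted p for 8075 genes), limma-voom (limma 3.58.1), a GC correction (loess, span 0.5), left-out libraries and, added after seeing the data, the legacy edgeR fit. On data simulated for malonyl-CoA against control (12696 genes), edgeR recovered 2% of 50 genes changed by 0.5 on the log2 scale, 53% of 100 changed by 1 and 94% of 50 changed by 2, with 4 false calls.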

Additional observations from a re-analysis of the deposited data

Results flagged for a closer look

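Among 96 groups of 4 libraries examined for a value that lies far from the other 3, 6 were singled out, where chance gives about 1 in 20. In Csf2ra, malonyl-CoA 4 stood at 94.7 CPM and the other treated libraries at 58.3 to 63.1. In Il3ra, control 5 stood at 16.7 CPM and the other controls at 28.1 to 28.7. Malonyl-CoA 4 was also the highest treated library for Stat5a (96.8 CPM, the others 60.8 to 63.9) and Gata2 (98.8 CPM, the others 69.3 to 73.0). In Kitl, control 4 stood at 0.326 CPM and the other controls at 1.03 to 1.13. In Csf3, control 5 stood at 0.047 CPM, a single count, and the other controls at 0.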

How the results depend on the processing

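No member passed edgeR's adjusted test when any 1 library, any same-numbered pair or control 5 with malonyl-CoA 4 was left out, nor with other factors or filters, limma-voom, the legacy fit or the GC correction. The exceptions were the replicate block, with 3 members (log2 fold change 0.52 for Csf1r, 0.72 for Csf2ra and 0.56 for Csf2rb), and DESeq2, with 2 (0.53 for Csf1r and 0.74 for Csf2ra). Over all genes the replicate block called 172, DESeq2 82 and edgeR with no low-count filter 1. Same-numbered libraries deviated together with correlations of 0.57, 0.49, 0.80 and 0.047 (replicates 1, 3, 4 and 5), so the numbers were not taken as pairs. Controls 1 and 4 correlated best with the treated library of their own number, and controls 3 and 5 with another (0.52 with malonyl-CoA 1 and 0.14 with malonyl-CoA 3). The log2 fold changes of Kit, Csf1r, Csf2ra, Csf2rb, Csf2rb2 and Csf3r kept their sign under all 22 alternatives.

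With 1 library left out, log2 fold changes ranged from -0.073 to 0.051 for Flt3, -0.014 to 0.74 for Il6ra, -0.20 to 0.28 for Kitl, -0.20 to 0.48 for Il6, -0.23 to 0.30 for Il5ra, -0.22 to 0.064 for Il7r, -0.063 to 0.11 for Lyn, -0.13 to 0.093 for Runx1, -0.050 to 0.16 for Gata2 and -0.060 to 0.18 for Hoxa9. List medians then ranged from 0.066 to 0.32 (signalling), 0.25 to 0.47 (STAT5 targets), -0.060 to 0.12 (stem markers) and -0.28 to -0.13 (erythroid markers), and the Csf2rb2 to Csf2rb ratio from -0.11 to 0.085 on the log2 scale.

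The GC correction turned the sign of Il3ra (-0.0066), Il7r (0.038), Stat5a (-0.031), Stat5b (-0.0032), Bcl2l1 (-0.015), Runx1 (0.021) and Gata2 (-0.21), and moved the medians of other receptors (0.070), STAT5 targets (0.14), stem markers (-0.10) and erythroid markers (-0.31). With library size only, Flt3 was at 0.021 and Runx1 at 0.043. Without both libraries numbered 1, Il6 was at -0.020, Lyn at -0.055 and Runx1 at 0.0043. Without both numbered 3, Il6 was at -0.050, Il5ra at -0.13, Lyn at -0.0057 and the STAT5 target median at 0.44. Without both numbered 4, Kitl was at -0.017, Il6 at -0.10, Il5ra at -0.21 and Hoxa9 at -0.13. Without both numbered 5, Flt3 was at 0.078, Il7r at 0.099 and Runx1 at 0.12, and the medians of ligands (0.54), brakes (0.31) and stem markers (0.16) moved. Without control 5 and malonyl-CoA 4, Flt3 was at 0.023, Il7r at 0.14, Stat5b at -0.027 and Gata2 at -0.026, the medians were 0.58 (ligands) and -0.11 (erythroid markers), and the log2 ratio of Csf2rb2 to Csf2rb was 0.17. Per longest transcript, control levels in RPKM were 51.5 for Kit, 47.7 for Flt3, 46.6 for Csf1r, 18.2 for Csf2ra, 30.2 for Csf2rb and 11 for Il3ra. The cause of these shifts was not tested. At this number of libraries, changes near 0.5 on the log2 scale were seldom recovered in simulated data. The changed genes there were drawn at random and noise was independent between genes, so that share does not describe the members themselves.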
